A study of Mus musculus with 26 samples.

Results

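Klf15 and 9 other Krüppel-like factors, namely Klf2, Klf3, Klf4, Klf6, Klf7, Klf9, Klf10, Klf11 and Klf13, were followed through brown adipose tissue of mice with and without Klf15 in brown adipocytes. They were taken by gene symbol, and all 10 were found among the 48432 genes of the expression table, which holds 26 genes of the wider KLF and SP family. All 10 passed the filter for testing, and 0 of the 10 were listed at 0 in any library. The study sequenced RNA of brown fat, the heat-producing fat depot, from mice aged 2 months. In FF mice both Klf15 alleles were floxed (flox/flox) and Cre was absent. In BKO mice Cre under the Ucp1 promoter was added to these alleles. This promoter is active in brown adipocytes, and the depot also holds vessels, immune cells and stroma. For each genotype there were 3 libraries of fed and 3 of fasted mice at room temperature, 4 of mice given a cold challenge and 3 of mice both cold-challenged and fasted. The durations of fasting and cold are not given in the sources used here.

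Krüppel-like factors are transcription factors with C2H2 zinc fingers at their C-terminal end that bind GC-rich sites and CACCC boxes, and the SP proteins share this DNA-binding domain. Members differ in the part outside the zinc fingers, which recruits activators or repressors: Klf3 works with CtBP co-repressors, and Klf9, Klf10, Klf11 and Klf13 recruit the Sin3a co-repressor. In metabolic tissue Klf15 is known for controlling amino acid breakdown, gluconeogenesis and fatty acid use, and both Klf15 and Klf9 are direct targets of the glucocorticoid receptor. Klf2 and Klf4 are best known from endothelial cells and macrophages, Klf6 and Klf10 respond early to growth factors, with Klf10 induced by TGF-beta, and Klf7 inhibits adipocyte differentiation.

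The promoters of Klf15 and of the 2 members whose levels ran most nearly with it across FF libraries, Klf9 and Klf13, are shown to place them in the genome. Sequences are from RefSeq on GRCm38.p6, and 9 of the 10 members matched; Klf10 did not. Each runs 5′ to 3′ along the gene for the 250 bases before its start, on chr6:90462326-90462575 (plus strand) for Klf15, chr19:23140976-23141225 (plus strand) for Klf9 and chr7:63938916-63939165 (minus strand) for Klf13. Capitals mark the CACCC box CCNCACCC, the E-box CACGTG and TGACG, the core of the cAMP response element, on either strand.
Klf15: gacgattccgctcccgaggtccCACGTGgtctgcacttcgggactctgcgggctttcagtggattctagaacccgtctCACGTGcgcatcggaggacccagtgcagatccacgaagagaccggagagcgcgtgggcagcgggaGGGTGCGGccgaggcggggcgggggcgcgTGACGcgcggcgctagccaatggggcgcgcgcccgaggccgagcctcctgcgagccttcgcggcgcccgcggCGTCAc
Klf9: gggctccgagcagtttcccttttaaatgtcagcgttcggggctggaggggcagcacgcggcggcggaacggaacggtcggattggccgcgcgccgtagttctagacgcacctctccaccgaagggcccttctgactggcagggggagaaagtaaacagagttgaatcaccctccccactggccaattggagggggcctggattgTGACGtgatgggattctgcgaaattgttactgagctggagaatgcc
Klf13: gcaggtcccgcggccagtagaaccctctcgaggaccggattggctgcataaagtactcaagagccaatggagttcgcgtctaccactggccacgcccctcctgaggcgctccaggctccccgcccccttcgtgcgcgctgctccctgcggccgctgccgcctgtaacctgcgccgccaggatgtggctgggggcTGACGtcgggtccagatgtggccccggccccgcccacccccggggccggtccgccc

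The Klf15 window held 2 E-boxes, at -228 to -223 and -172 to -167 from the start, a CACCC box on the minus strand at -107 to -100, and 2 TGACG cores, at -78 to -74 and -6 to -2. The Klf9 window held a TGACG core at -46 to -42, and that of Klf13 one at -56 to -52. Of 32851 promoter windows of this length, 17.8% held TGACG, 14.9% the CACCC box and 6.02% the E-box, against 5, 3 and 4 of the 9 member windows. The GC box GGGCGG, searched on both strands and not capitalised, was in 8 of 9 member windows and 32.7% of all. The palindromic glucocorticoid response element was in 0 of the 9 and in 0.39% of all, the full cAMP response element TGACGTCA, which contains TGACG, in 0 and 1.55%, and the MEF2 site in 1, Klf2, and 3.2%. Such matches describe letters in the window and do not show binding. Klf15 itself lies at chr6:90462576-90475238 on the plus strand, Klf9 at chr19:23141226-23168134 on the plus strand and Klf13 at chr7:63886351-63938915 on the minus strand, in GENCODE M21 on GRCm38.

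Libraries carried numbers in their labels that fall into 2 runs, CB1 to CB8 and CB15 to CB32, and the labels do not say what the number stands for. The first run holds 8 libraries, all FF: the 3 fasted, 3 of the 4 cold (replicates 2, 3 and 4) and 2 of the 3 fed (replicates 1 and 2). All 13 BKO libraries, the 3 FF libraries in cold plus fasting, FF fed replicate 3 and FF cold replicate 1 belong to the second. Responses within BKO mice and the genotype comparison in cold plus fasting thus lie within 1 run. Within the second run the numbers also go by condition. Cold libraries hold 15 to 19, cold plus fasting 20 to 25, fasted 26 to 28 and fed 29 to 32. In the first run fasted libraries hold 1 to 3, cold 4 to 6 and fed 7 and 8. Condition and block of numbers therefore cannot be told apart in the responses of either genotype. In the comparison of fasted genotypes, and of FF cold plus fasting with FF fasted, the run and the condition cannot be told apart. FPKM (fragments per kilobase of transcript relative to all mapped fragments) summed to 388107 to 501068 per library, and 11345 to 11868 genes reached 1 FPKM. The 11 tested brown adipocyte markers summed to 10390 to 13770 FPKM per library. The twelfth is Ucp1, whose row held 0 in all 8 cold challenge libraries and was treated as a failed estimate.

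Klf15, the gene targeted by Cre, was lower in every BKO library than in every FF library. In FF mice it stood at 29.8, 30.6 and 23.5 FPKM fed, 24.5, 18.8 and 29.2 fasted, 15.2, 16.9, 15.2 and 9.04 in cold, and 21.7, 16.4 and 15.4 in cold plus fasting. In BKO mice the values were 3.15, 3.67 and 5.13 fed, 8.92, 7.94 and 8.82 fasted, 2.12, 2.54, 2.84 and 2.18 in cold, and 2.86, 3.34 and 3.82 in cold plus fasting. The highest BKO library, a fasted one, lay just below the lowest FF library, a cold one, and within each condition the genotypes were well apart. The mean in FF mice was 7.02 times that in BKO mice when fed, 2.82 times when fasted, 5.81 times in cold and 5.34 times in cold plus fasting. As linear differences these were 23.98, 15.6, 11.7 and 14.5 FPKM. In bulk tissue fewer cells expressing a gene and less RNA per cell cannot be told apart. The labels do not give the floxed exons either, so reads from exons outside the deleted part and reads from cells without Cre cannot be told apart in the Klf15 that was left.

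**Figure D1:**
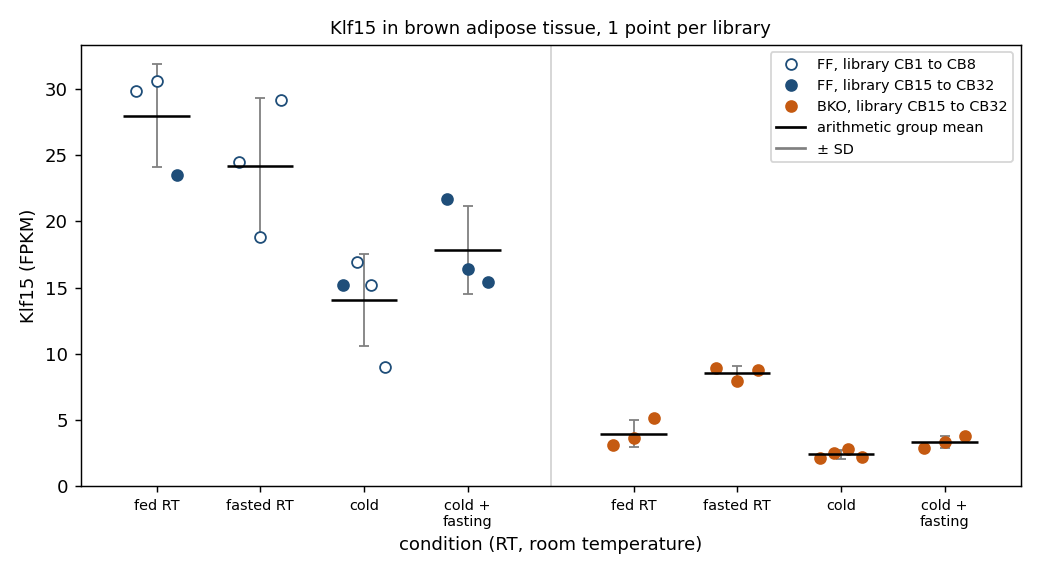
Klf15 in each of the 26 libraries, in FPKM, by genotype and condition; points are libraries, marked by their number run, with the arithmetic group mean ± SD. BKO libraries sit between 2.12 and 8.92 FPKM and FF libraries between 9.04 and 30.6 FPKM.

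Of the 10 factors, Klf9 had the highest mean in each of the 8 groups, on the FPKM scale, which is per length of transcript. Its libraries overlapped those of Klf10 in FF mice in cold and in cold plus fasting. They overlapped those of Klf2 in fed and fasted BKO mice. In FF fed replicate 3 Klf2, at 52.0 FPKM, lay above Klf9, at 39.2. In fed FF mice Klf9 averaged 46.6 ± 6.78 FPKM (SD, n = 3) and Klf15 27.97 ± 3.87, and their libraries did not overlap. Below Klf15 came Klf2 at 26.9 ± 21.8, Klf13 at 16.9 ± 4.17, Klf6 at 12.7 ± 1.79, Klf3 at 12.1 ± 0.38, Klf4 at 11.8 ± 9.66 and Klf10 at 11.6 ± 5.29, and each of these overlapped its neighbour in the order. Klf11 at 4.77 ± 1.54 and Klf7 at 3.36 ± 0.352 were the lowest, and Klf10, Klf11 and Klf7 did not overlap one another. In BKO mice Klf15 took the last place fed and in cold, and the ninth of 10 places fasted and in cold plus fasting. Fed and in cold plus fasting its libraries overlapped those of Klf7. Klf10 moved up to the second place in FF mice in cold and in cold plus fasting, by its mean. In both groups it overlapped the factors ranked next above and below it. In cold plus fasting it stood at 31.9, 10.1 and 16.1 FPKM, and the difference from fed was not called (adjusted p = 0.205, limma).

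**Figure D2:**
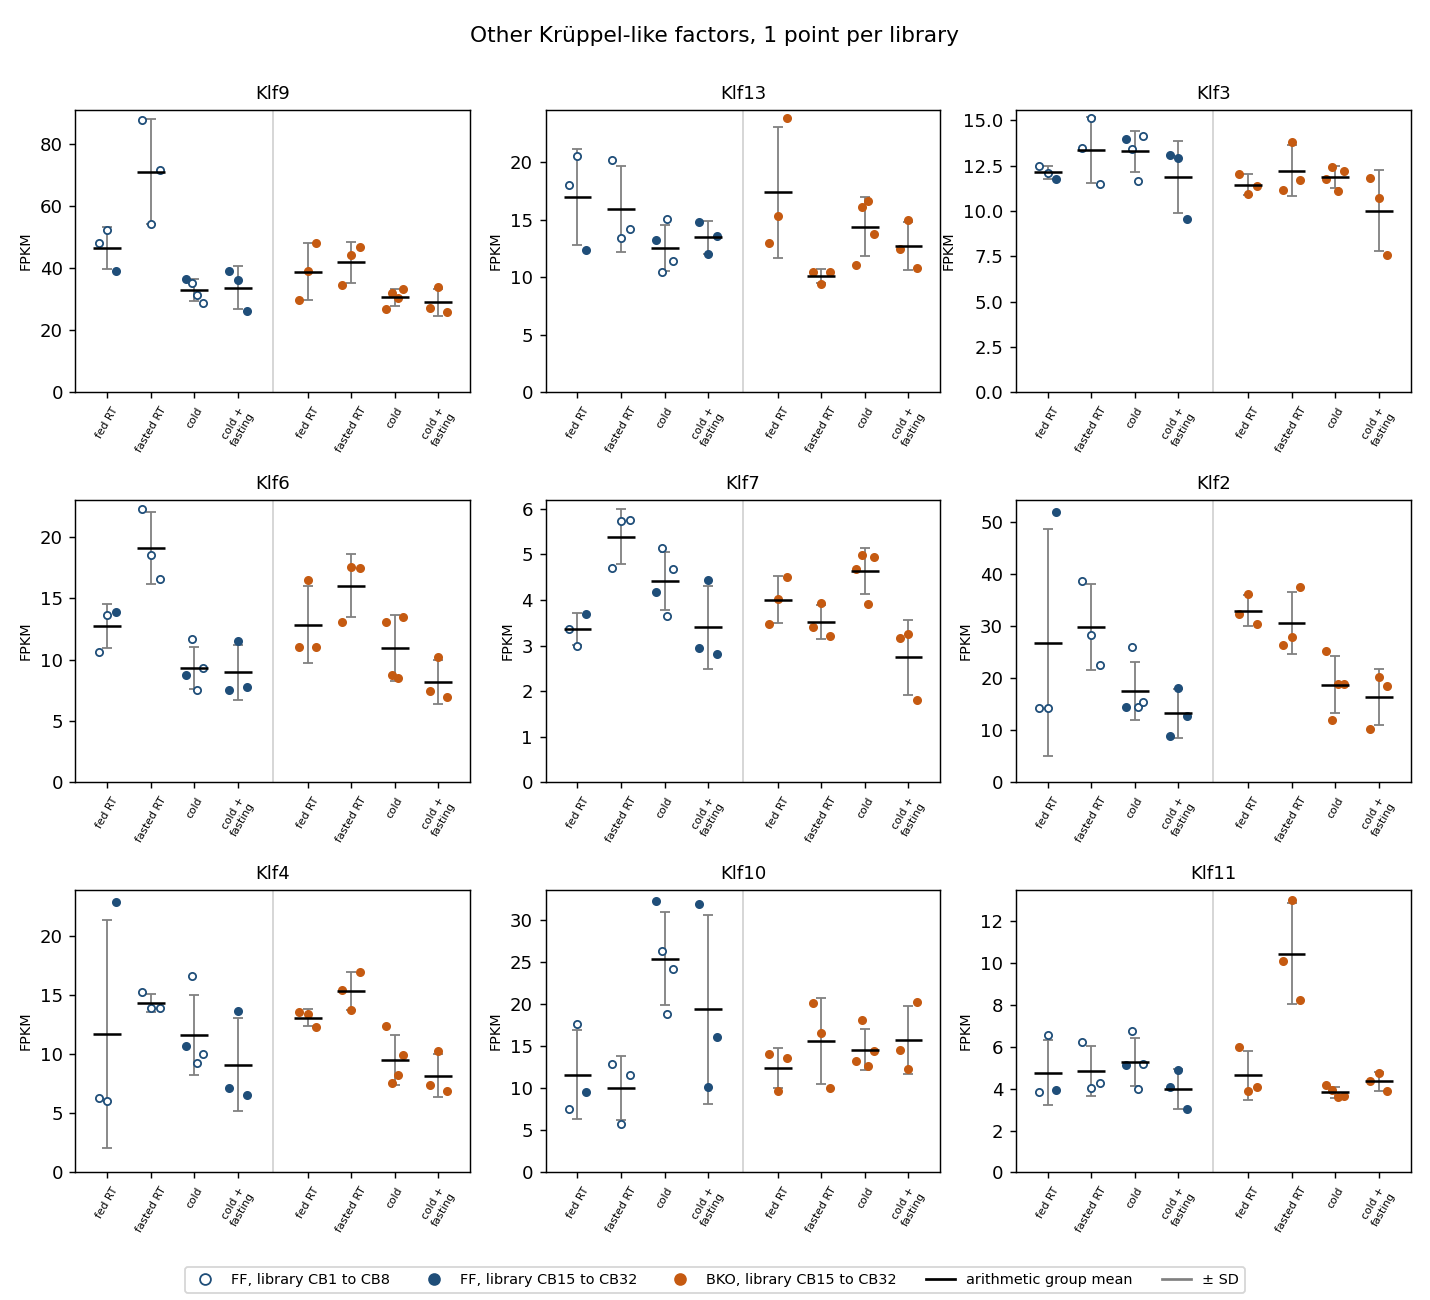
Levels of the other 9 factors in each library, in FPKM, with 1 panel per gene on its own axis; points are libraries, marked by genotype and number run, with the arithmetic group mean ± SD. Fasted BKO libraries of Klf11 lie at 8.25 to 13 FPKM, above every other library, and FF cold libraries of Klf10 at 18.9 to 32.3.

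Whether loss of Klf15 shifted its relatives was asked by comparing BKO with FF mice in each condition. Fed, 1 of the 10 factors was called, Klf15 itself, which differed by -2.55 on the log2(FPKM + 1) scale (SE 0.19, adjusted p = 1.16e-08), where 0.22% of all 12702 tested genes were called. In cold 1 of 10 was called, again Klf15 (-2.11, SE 0.16, adjusted p = 2.25e-08), against 0.402% of all genes. In cold plus fasting Klf15 was the 1 call as well (-2.11, SE 0.19, adjusted p = 4.6e-07), against 0.236%. These adjusted p-values, and those that follow, are from limma with Benjamini-Hochberg adjustment over all tested genes. For the other 9 factors the differences ran from -0.27 to 0.55 fed, with 0 of the 9 at an unadjusted p under 0.05, and their median was 0.02 against 0.004 over all genes. Intervals were wide for Klf2, whose fed difference of 0.55 had a 95% interval of -0.22 to 1.32, and narrow for Klf3, at -0.08 with an interval of -0.35 to 0.19.

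Klf10 in cold was the member other than Klf15 whose genotypes did not overlap. It stood at 32.3, 26.4, 18.9 and 24.2 FPKM in FF cold libraries and at 13.3, 18.1, 12.6 and 14.4 in BKO cold libraries. The lowest FF library lay above the highest BKO library by less than 1 FPKM. The ratio of the means was 0.574, and the log2 difference of -0.75 (SE 0.30, 95% interval -1.36 to -0.13) had an adjusted p of 1. In this comparison 2 of 10 factors, Klf15 and Klf10, did not overlap, and 3.85% of all genes did not. Klf11 differed by -0.36 (95% interval -0.71 to -0.01), also with an adjusted p of 1.

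Fasted mice were the condition in which relatives of Klf15 were called between genotypes. Of the 10 factors 4 were called, Klf15 itself and 3 of the other 9, where 8.68% of all genes were. Genotype and library run cannot be told apart in this comparison. Klf11, a repressor that acts with Sin3a and is known for controlling genes of glucose and lipid metabolism, was higher in BKO mice. It stood at 6.21, 4.05 and 4.29 FPKM in fasted FF libraries and at 10.1, 13 and 8.25 in fasted BKO libraries, with no overlap. The mean was 2.16 times as high in BKO mice (log2 difference 0.97, SE 0.20, adjusted p = 0.00323). Klf9, the glucocorticoid target, was lower in BKO mice. Its values were 87.8, 54.2 and 71.7 FPKM in FF and 34.6, 44.4 and 47.0 in BKO libraries, a ratio of 0.589 (log2 difference -0.73, SE 0.18, adjusted p = 0.0146). Klf7 was lower too, at 4.7, 5.72 and 5.75 FPKM in FF and 3.4, 3.94 and 3.22 in BKO libraries, a ratio of 0.654 (log2 difference -0.50, SE 0.15, adjusted p = 0.0435). Klf15 was the fourth call, at -1.38 (SE 0.19, adjusted p = 6.49e-05).

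Klf13, which like Klf9 belongs to the Sin3a-binding group, did not pass the test in fasted mice although its genotypes did not overlap: FF libraries held 20.2, 13.4 and 14.2 FPKM and BKO libraries 10.4, 9.4 and 10.4 (log2 difference -0.59, SE 0.20, adjusted p = 0.0729). With it, 5 of 10 factors, the targeted Klf15 among them, did not overlap between fasted genotypes, against 23.1% of all genes. The remaining factors, Klf2, Klf3, Klf4, Klf6 and Klf10, differed by -0.24 to 0.61. With the library run as a covariate the adjusted p became 0.0585 for Klf11 at a difference of 1.11, 0.253 for Klf9 at -0.68 and 0.277 for Klf7 at -0.54, and 1.16% of all genes were called. The run effect in that fit comes only from the fed and cold FF groups, which hold libraries of both runs. Leaving out FF fasted replicate 1 or 3 or BKO fasted replicate 1 took Klf9 to 0.0799, 0.0611 and 0.0709, and Klf7 was lost in 11 of the 26 fits that left out 1 library, with adjusted p up to 0.17.

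**Figure D3:**
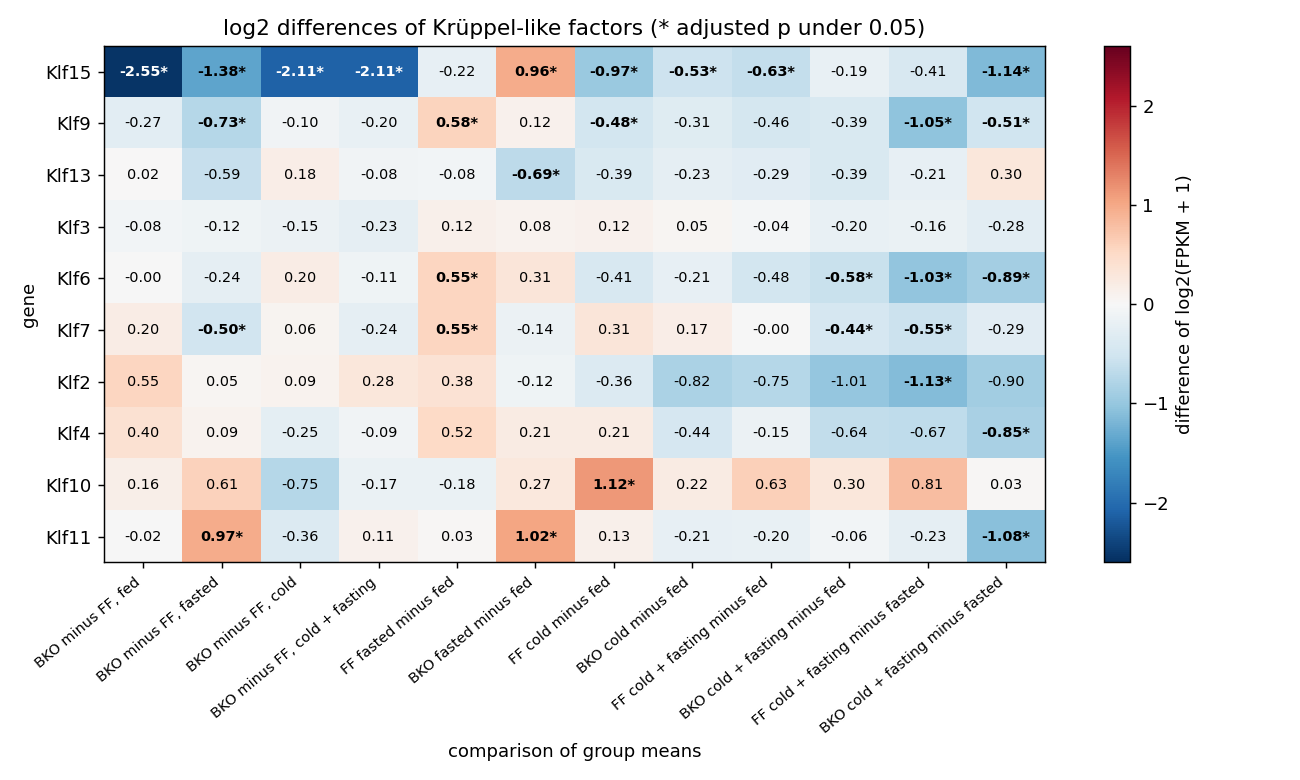
Heat map of the differences of group means of log2(FPKM + 1), with the 10 factors as rows and 12 comparisons as columns; colour and printed value give the difference (red higher, blue lower in the group named first), and an asterisk marks an adjusted p under 0.05. Klf15 lies between -2.55 and -1.38 in the 4 genotype comparisons, and Klf11 in fasted mice at 0.97.

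In fasted against fed mice the calls were Klf6, Klf7 and Klf9 in FF mice and Klf11, Klf13 and Klf15 in BKO mice. Within a genotype the responses share the fed libraries and are therefore not independent of each other. In FF mice 3 of 10 factors rose and 0 fell, where 18.1% of all genes rose and 37.5% were called in either direction. Klf9 rose from 48.3, 52.4 and 39.2 FPKM fed to the 87.8, 54.2 and 71.7 given above, which put all fasted libraries above all fed ones (log2 difference 0.58, SE 0.18, adjusted p = 0.0156). Klf7 rose from 3.37, 3.0 and 3.7 FPKM (0.55, SE 0.15, adjusted p = 0.00677). Klf6, an early-response factor, rose from 10.7, 13.6 and 13.9 to 22.2, 18.5 and 16.5 FPKM (0.55, SE 0.20, adjusted p = 0.0364). Klf15 in FF mice was at 0.863 times its fed mean, and its groups overlapped (-0.22, 95% interval -0.61 to 0.17, adjusted p = 0.39).

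In BKO mice 2 of 10 factors rose on fasting and 1 fell, where 27.4% of all genes were called. Klf11 rose from 6.0, 3.87 and 4.08 FPKM to the 10.1, 13 and 8.25 named above (log2 difference 1.02, SE 0.20, adjusted p = 0.000453). The Klf15 that was left after deletion rose to 2.15 times its fed mean, from 3.15 to 5.13 FPKM in fed libraries to 7.94 to 8.92 in fasted ones (0.96, SE 0.19, adjusted p = 0.000603). Klf13 fell from 13, 15.3 and 23.8 FPKM to 9.4 to 10.4 (-0.69, SE 0.20, adjusted p = 0.0141). Klf9 did not pass in BKO mice, at 29.7, 39.2 and 48.1 FPKM fed and 34.6, 44.4 and 47.0 fasted (0.12, 95% interval -0.26 to 0.50, adjusted p = 0.674).

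The difference between the genotypes' fasting responses was tested directly, and 1 of 10 factors passed, where 0.716% of all genes did. It was Klf15, at 1.17 (SE 0.27, adjusted p = 0.0425), with a change of -3.83 FPKM in FF and 4.57 FPKM in BKO mice. The call was lost in 15 of the 26 fits without 1 library, with adjusted p up to 0.121, and with the run as a covariate (1.20, adjusted p = 0.0561). Klf11, at 0.98 (95% interval 0.41 to 1.56, adjusted p = 0.107), Klf7, at -0.69 (-1.14 to -0.25, 0.145), Klf13, at -0.61 (-1.20 to -0.02, 0.4) and Klf9, at -0.47 (-1.01 to 0.07, 0.512), did not pass. Their responses are thus not shown to differ between genotypes. FF fasting calls were also lost without single libraries, for Klf9 without FF fed replicate 3 (adjusted p = 0.0836) or FF fasted replicate 1 (0.0999), and for Klf6 without FF fed replicate 1 (0.15) or FF fasted replicate 1 (0.138) or 2 (0.0629). Klf13 in BKO mice was lost without BKO fed replicate 3, its highest library (-0.45, adjusted p = 0.108).

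Fed FF replicate 3, the 1 fed FF library of the second run, stood apart for Klf2 and Klf4. Klf2 was at 14.3 and 14.4 FPKM in the other fed FF libraries and at 52.0 in this one, and Klf4 at 6.32 and 6.04 against 22.9. The 3 fed BKO libraries, of the same run, held 32.3, 36.2 and 30.4 FPKM of Klf2 and 13.6, 13.5 and 12.3 of Klf4. Without FF fed replicate 3, Klf4 in FF mice was called higher on fasting (log2 difference 1.10, adjusted p = 0.00141) and Klf2 as well (0.98, adjusted p = 0.0203), where with it the differences were 0.52 and 0.38 with adjusted p of 0.218 and 0.447. Summed over 21 immediate-early genes, which respond within minutes to stimuli, these fed FF libraries held 97.4 to 250.9 FPKM and the fed BKO libraries 181 to 462. Of the 21 genes, 19 were tested. Fasted FF libraries held 287 to 685 FPKM of them, and 6 of the 19 were called higher on fasting, where 18.1% of all genes rose. Fasted BKO replicate 1 held 1062 FPKM and the other fasted BKO libraries 271 and 336. In BKO mice 3 of the 19 were called higher on fasting, where 27.4% of all genes were called in either direction. The part of such genes in the values of Klf2, Klf4 and Klf6 was not tested.

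Cold was compared with feeding at room temperature to ask which factors respond to thermogenic demand. In FF mice 3 of 10 factors were called, where 23.6% of all genes were. Klf15 fell to 0.503 times its fed mean (log2 difference -0.97, SE 0.18, adjusted p = 0.000416), and its 4 cold libraries lay below all 3 fed ones. Klf10, the TGF-beta inducible repressor, rose from 7.6, 17.6 and 9.59 FPKM fed to 32.3, 26.4, 18.9 and 24.2, or 2.19 times (1.12, SE 0.32, adjusted p = 0.0137). Klf9 fell from 39.2 to 52.4 FPKM to 36.7, 35.4, 31.4 and 28.8 (-0.48, SE 0.17, adjusted p = 0.047). In BKO mice 1 of 10 was called, where 16.2% of all genes were: Klf15 fell again, to 0.607 times its fed mean (-0.53, SE 0.18, adjusted p = 0.0436). Klf10 was at 14.1, 9.74 and 13.6 FPKM in fed and 12.6 to 18.1 in cold BKO libraries (0.22, 95% interval -0.45 to 0.88, adjusted p = 0.711).

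Tested directly, the difference between the genotypes' cold responses was called for 0 of the 10 factors, where 0.00787% of all genes were, and 0 of the 10 had an unadjusted p under 0.05 with limma. The difference for Klf10 was -0.91 with a 95% interval of -1.85 to 0.03, and for Klf15 0.44 with an interval of -0.08 to 0.96. The cold call of Klf10 was lost without FF fed replicate 1 (0.89, adjusted p = 0.102), that of Klf9 in 15 of 26 fits without 1 library (up to 0.197) and that of Klf15 in BKO mice in 8 of them (up to 0.226, without BKO fed replicate 3). Among the libraries of the second run, with 1 fed and 1 cold FF library, the FF differences were -0.60 for Klf15, 1.65 for Klf10 and -0.09 for Klf9, with adjusted p of 0.376, 0.212 and 0.972; single libraries are there assumed to vary like the other groups.

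In cold plus fasting against fed mice, Klf15 was the 1 of 10 factors called in FF mice, where 20.5% of all genes were (-0.63, SE 0.19, adjusted p = 0.0216). That call was lost without FF cold plus fasting replicate 2 or 3 or FF fed replicate 1 or 2, with differences from -0.58 to -0.54 and adjusted p from 0.0687 to 0.0923, and with the run as a covariate (-0.58, adjusted p = 0.147). In the second run alone, with 1 fed FF library, Klf15 differed by -0.40 (adjusted p = 0.402), and Klf2 (-1.94, adjusted p = 0.0169) and Klf4 (-1.31, adjusted p = 0.0395) were called instead, whose differences over all libraries were -0.75 and -0.15. That fed library is FF fed replicate 3, which stood apart for both. In BKO mice 2 of 10 fell, where 8.93% of all genes fell and 19% were called in either direction. Klf6 fell from 11.01, 16.5 and 11.02 FPKM to 7.41, 10.2 and 6.95 (-0.58, SE 0.20, adjusted p = 0.0473). Klf7 fell from 3.48, 4.01 and 4.51 to 3.17, 3.26 and 1.8 FPKM (-0.44, SE 0.15, adjusted p = 0.0474), with a difference of -0.24 (adjusted p = 0.315) without BKO cold plus fasting replicate 3. Both are near the threshold: Klf6 was lost in 12 and Klf7 in 16 of the 26 fits without 1 library. The difference between genotypes in this response was called for 0 of 10 factors, where 0.00787% of all genes were, with 0 at an unadjusted p under 0.05 in limma.

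Cold plus fasting was also set against fasting at room temperature, a comparison in which many genes differed, and the share of the factors called was near or below that of all genes in each genotype (4 and 5 of 10). In FF mice 4 of 10 factors fell and 0 rose, where 25.9% of all genes fell and 52% were called in either direction. Klf9 fell from 54.2 to 87.8 FPKM to 39.2, 36.3 and 26.1, or 0.475 times (-1.05, SE 0.18, adjusted p = 6.58e-05). Klf6 fell to 7.55, 11.6 and 7.76 FPKM, or 0.469 times (-1.03, SE 0.20, adjusted p = 0.000225). Klf7 fell to 2.95, 4.44 and 2.82 FPKM (-0.55, SE 0.15, adjusted p = 0.00432). Klf2, the endothelial and macrophage factor, fell from 38.7, 28.4 and 22.5 FPKM to 8.87, 18.2 and 12.9 (-1.13, SE 0.37, adjusted p = 0.0144). The Klf2 call was lost without FF cold plus fasting replicate 1 (0.0812) or FF fasted replicate 1 (0.0696), and its difference with the run as a covariate was -1.81. Klf4 was called as well with that covariate (-1.43, adjusted p = 0.0129), where without it the difference was -0.67 (adjusted p = 0.0881). The fasted FF libraries all lie in the first run and those in cold plus fasting in the second. The run effect in that fit therefore comes from the fed and cold FF groups, which include FF fed replicate 3. That library stood apart for Klf2 and Klf4, so the larger differences do not separate run from condition.

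In BKO mice this comparison lies within 1 run of libraries, though its groups hold separate blocks of numbers. There 5 of 10 factors fell and 0 rose, where 22.2% of all genes fell and 45.1% were called in either direction. Klf15 fell from 7.94 to 8.92 FPKM to 2.86 to 3.82, or 0.39 times (-1.14, SE 0.19, adjusted p = 4.61e-05). Klf11 fell to 4.37, 4.77 and 3.89 FPKM, or 0.416 times (-1.08, SE 0.20, adjusted p = 0.00012). Klf6 fell from 13.1, 17.5 and 17.5 to 6.95 to 10.2 FPKM (-0.89, SE 0.20, adjusted p = 0.00111). Klf4, a factor of endothelial cells and macrophages, fell from 15.4, 13.8 and 16.97 to 7.4, 10.3 and 6.9 FPKM (-0.85, SE 0.32, adjusted p = 0.0365). Klf9 fell from 34.6 to 47.0 FPKM to 27.2, 34.2 and 25.95 (-0.51, SE 0.18, adjusted p = 0.0272). The Klf4 and Klf9 calls were lost without BKO cold plus fasting replicate 1 or 3 or BKO fasted replicate 2 or 3, and that of Klf4 also without BKO fasted replicate 1, with adjusted p up to 0.111. Klf6 and Klf9 passed in both genotypes, and the difference of this response between genotypes was not tested. Klf3, the CtBP-binding repressor, was called in 0 of the 15 comparisons, and its highest group mean was 1.33 times its lowest, the narrowest range of the 10. After quantile normalization it was called in this last comparison (-0.28, adjusted p = 0.0381).

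Across the 13 FF libraries, the 5 genes whose log2(FPKM + 1) was most highly correlated with that of Klf15, of 10313 ranked, were Cox14, a cytochrome c oxidase assembly factor (Pearson's r = 0.93, Spearman's rho = 0.901), Rps26-ps1, a ribosomal pseudogene (0.928, 0.89), Macrod1 (0.925, 0.929), Eif4ebp1, an inhibitor of cap-dependent translation (0.913, 0.929) and Tspo, a protein of the outer mitochondrial membrane (0.906, 0.841). Without FF cold replicate 4 and FF fed replicate 2, the libraries farthest from the median of Klf15, r was 0.858 to 0.957. These libraries share conditions and runs, so r describes the pattern and has no p. Reads of Rps26-ps1 may belong to its parent gene. In BKO mice none of the 5 was called different from FF mice in any condition, for example Cox14 at 147 ± 9.44 FPKM in fed FF and 139 ± 14.5 in fed BKO mice. Among the factors themselves r with Klf15 was 0.724 for Klf9, 0.669 for Klf13, 0.5 for Klf6 and -0.42 for Klf10.

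Of the 16 other KLF and SP genes, 5 reached the filter: Sp3 with a median of 17.9 FPKM, Sp1 with 10.48, Sp2 with 6.53, Klf16 with 3.86 and Sp4 with 0.847. None of the 5 was called between genotypes in any condition, with differences from -0.24 to 0.19. Sp1, a ubiquitous activator, was lower in cold plus fasting than fasted in FF mice (-0.44, adjusted p = 0.0338) and in BKO mice (-0.66, adjusted p = 0.00297), and so was Sp4 (-0.38, adjusted p = 0.0269, and -0.48, adjusted p = 0.00743). Klf5, an adipocyte differentiation factor, had a highest value of 0.162 FPKM, and Klf17, Sp8 and Sp9 were listed at 0 in all 26 libraries. Of 14 co-regulators through which these factors act, 0 were called between genotypes in any of the 4 conditions. In BKO mice 7 of the 14 were lower in cold plus fasting than fasted and 0 were higher, where 22.2% of all genes fell and 45.1% were called in either direction, with a median of -0.16 against -0.01 over all genes. In FF mice 6 were lower and 1 was higher, where 25.9% fell and 52% were called. The BKO calls included Sin3a (-0.60, adjusted p = 0.000388), Ctbp2 (-0.55, adjusted p = 4.87e-05) and the acetyltransferase Crebbp (-0.52, adjusted p = 0.000941).

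Among 11 tested genes described elsewhere as Klf15 targets, 1 was lower in BKO than in FF mice fed, 4 fasted, 3 in cold and 2 in cold plus fasting, and 3 were higher, all in fasted mice. Of all genes 0.22% were called fed, 8.68% fasted, 0.402% in cold and 0.236% in cold plus fasting, in either direction. The enzymes of amino acid breakdown Hpd and Prodh were called lower in fasted mice, at -1.54 (SE 0.13, adjusted p = 1.27e-07) and -1.75 (SE 0.17, adjusted p = 7.92e-07), and in cold and cold plus fasting as well. In fasted mice, where genotype and library run cannot be told apart, the differences of the 11 genes ran from -1.75 to 0.65. List medians were -0.001 fed, -0.19 fasted, -0.02 in cold and -0.07 in cold plus fasting, against -0.003 to 0.012 over all genes.

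Glucocorticoid-responsive genes were followed beside Klf9. On fasting 5 of 12 rose and 0 fell in FF mice, with a median of 0.83 against 0 over all genes, where 18.1% of all genes rose and 37.5% were called. In BKO mice 6 rose and 1 fell, with a median of 0.68 against -0.01, where 27.4% of all genes were called. Fkbp5, a chaperone induced by the glucocorticoid receptor, stood at 8.1, 15.2 and 1.67 FPKM in fed FF libraries and 69.1, 16.04 and 89.6 in fasted ones, and at 1.89, 1.47 and 3.0 and then 19.4, 13.3 and 10.54 in BKO mice. It rose in both genotypes (2.70, adjusted p = 0.000155, and 2.29, adjusted p = 0.00117). FF fasted replicate 2 was the lowest fasted FF library for Fkbp5 and Klf9, but also for Klf10, Klf11, Klf13 and Klf15. That library had the lowest FPKM sum of all, 388107. A link between Klf9 and glucocorticoid signalling was not tested. Between fasted genotypes 0 of the 12 were higher in BKO mice and 2 were lower, Fkbp5 (-1.67, adjusted p = 0.0337) and Cdkn1a (-0.69, adjusted p = 0.0453), with a median of -0.68 against -0.002 over all genes. Of all genes 8.68% were called there in either direction, and genotype and library run cannot be told apart. Among fed FF libraries Fkbp5 was at 8.1 and 15.2 FPKM in the first run and at 1.67 in the second. Fed BKO libraries, all of the second run, held 1.47 to 3.0. In cold plus fasting against fasting 9 of 12 fell in FF and 8 of 12 in BKO mice, where 25.9% and 22.2% of all genes fell, and 0 rose. Of 17 clock genes, 0 were called between genotypes in any condition. On fasting in FF mice 4 of the 17 rose and 5 fell, where 18.1% of all genes rose and 37.5% were called, among them Dbp (-2.39, adjusted p = 8.75e-07) and Arntl (1.21, adjusted p = 7.91e-06).

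**Figure D4:**
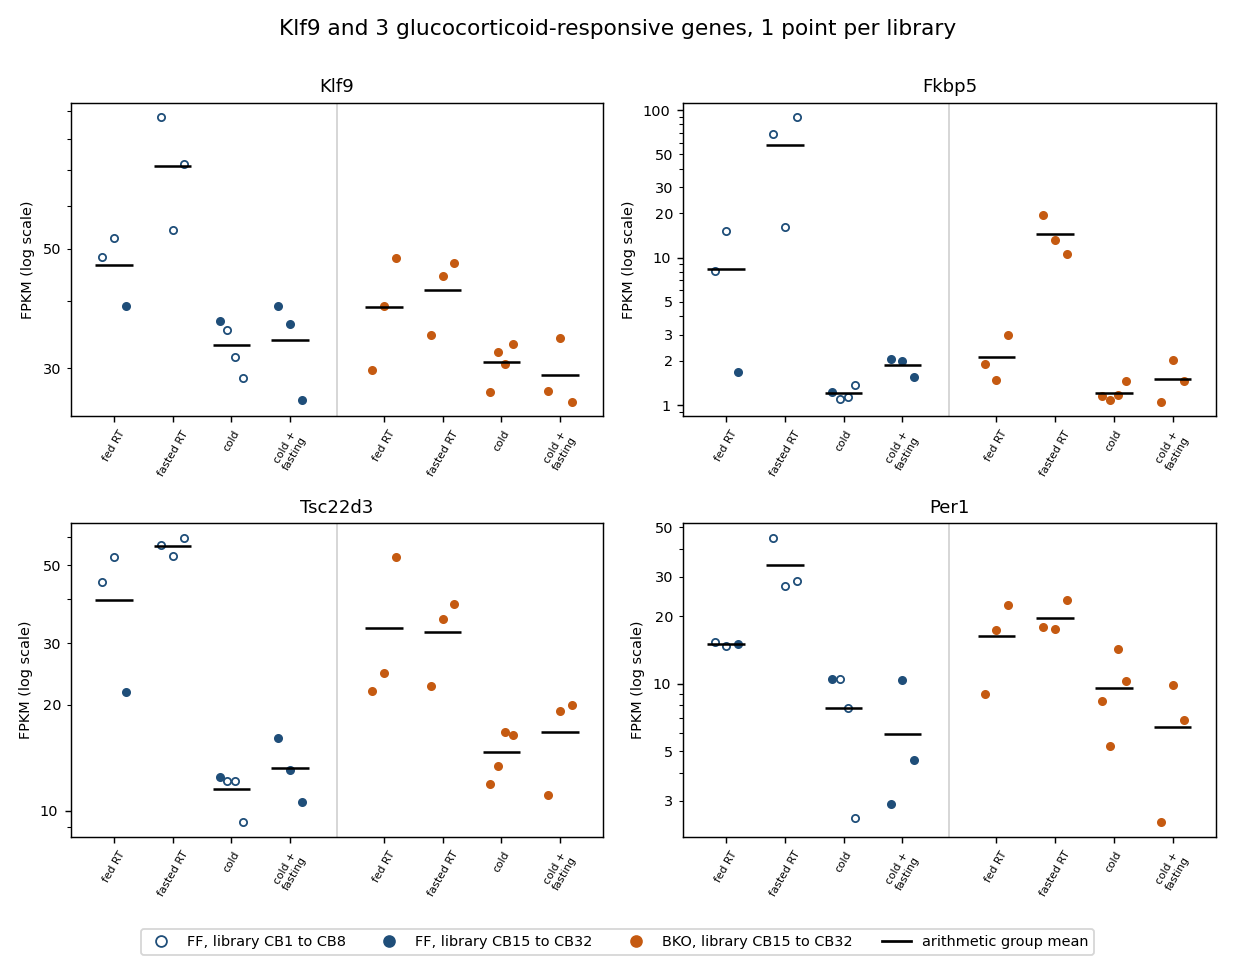
Klf9 and the glucocorticoid-responsive genes Fkbp5, Tsc22d3 and Per1 in each library, in FPKM on log axes; points are libraries, marked by genotype and number run, and short lines are arithmetic group means. Fasted FF libraries of Klf9 lie at 54.2 to 87.8 FPKM, above all others, and FF cold libraries of Fkbp5 lie below 2 FPKM.

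Of the 11 tested brown adipocyte markers, 3 were higher and 0 lower in fasted BKO than in fasted FF mice, where 8.68% of all genes were called. Their differences there ran from -1.09 to 1.41. On fasting in FF mice 3 rose and 2 fell, where 37.5% of all genes were called. Markers of the other cells of the depot were followed because bulk tissue holds them. Of 12 endothelial markers 0 were called between genotypes other than in fasted mice, where 1, Egfl7, was higher in BKO mice and 8.68% of all genes were called. In cold 5 of the 12 rose in each genotype, and 1 fell in FF and 0 in BKO mice. Of all genes 23.6% were called in FF and 16.2% in BKO mice, in either direction. Their sum went from 290 to 343 FPKM in fed to 356 to 425 in cold FF libraries, and from 312 to 340 to 386 to 411 in BKO libraries. Klf2, an endothelial factor, did not pass in cold, at -0.36 in FF (adjusted p = 0.49) and -0.82 in BKO mice (adjusted p = 0.114). In BKO mice its cold libraries, at up to 25.3 FPKM, all lay below its fed ones, at 30.4 to 36.2. FF fed replicate 3 is in neither of these BKO groups but adds to the spread of the fit. Without it the BKO difference was called (-0.82, adjusted p = 0.0338), so the miss does not show that Klf2 was unchanged. Of 8 macrophage markers 0 were called between genotypes. In cold 3 fell in FF and 2 in BKO mice and 0 rose, against the same 23.6% and 16.2% of all genes called. On fasting 4 of the 8 fell in BKO and 0 in FF mice, where 27.4% and 37.5% of all genes were called in either direction. Of 6 fibroblast markers 0 were called between genotypes and 4 fell in cold in each genotype, where 23.6% of all genes were called in FF and 16.2% in BKO mice. The fibroblast sum went from 117 to 153.6 FPKM in fed to 78.4 to 103 in cold FF libraries, and from 103.3 to 160.6 to 76.5 to 88.3 in BKO libraries. Smooth muscle and pericyte markers summed to 111 to 128 FPKM in fasted FF and 139 to 155 in fasted BKO libraries, and 1 of 6, Cspg4, was higher in fasted BKO mice (0.75, adjusted p = 0.0159). Of 8 tested skeletal muscle markers, 1 was higher in fasted BKO than in fasted FF mice, with a median of 1.18. For these 2 lists too the share of all genes called between fasted genotypes was 8.68%. Genotype and library run cannot be told apart in any comparison of fasted genotypes. The part of these cells in the values of the factors was not tested.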

How the data were processed

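RNA of brown adipose tissue was sequenced from 26 mouse libraries in 8 groups. The deposited table holds FPKM, which the authors made with Cufflinks and Cuffdiff from STAR alignments to mm10, per the submitters' processing notes, without versions. Counts were not used here, so depth is unknown and no counting error is given. Tests covered genes that reached 1 FPKM in 3 or more libraries, without 33 genes that held 0 in some libraries and at least 100 FPKM in all others, which left 12702. Values were taken as log2(FPKM + 1), a scale that understates changes of low genes. Means of the 8 groups were fitted over 26 libraries (18 residual degrees of freedom) with limma 3.58.1 in R 4.3.3, with intensity trend and empirical Bayes. P-values are two-sided with Benjamini-Hochberg adjustment within each comparison and a threshold of 0.05. The labels do not say that libraries of a group came from separate mice, so p-values measure the spread between libraries. Replicates were numbered in accession order.

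All 10 factors are named. From each other list the 3 called members of smallest adjusted p per comparison could be named, and for likeness to Klf15 the 5 genes with the highest r and a mean of at least 2 FPKM; genes of the lists named outside that rule, such as Klf5, Tsc22d3 and Per1, were chosen after their values were seen. The members and lists were chosen with earlier results of these data known. The fit was tested on simulated data. Alternatives were a pseudocount of 0.1, no filter, quantile normalization, the library run as a covariate, the 18 libraries of the second run alone, and each library left out.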

Additional observations from a re-analysis of the deposited data

Results flagged for a closer look

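Klf2 in FF cold replicate 2 stood at 26 FPKM, far from the other FF cold libraries at 14.4, 14.6 and 15.5. Its gap to the nearest of them was 0.909 of the whole range of the group, above Dixon's 95% critical value for 4 libraries. Values of the 10 factors in the 2 groups of 4 libraries were examined this way, 20 in all, and 1 stood out, which is the number chance gives at about 1 in 20.

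The fasting response of Klf15 differed between genotypes by 1.17 on the log2 scale (adjusted p = 0.0425, limma), as described above. The mean was 3.83 FPKM lower after fasting in FF mice and 4.57 FPKM higher in BKO mice. The 3 fasted BKO libraries were all above the 3 fed ones, and FF libraries overlapped.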

How the results depend on the processing

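No paired analysis was possible because the labels give no replicate numbers. Of 150 values of the 10 factors over 15 comparisons, 149 kept their direction and side of the threshold with a pseudocount of 0.1, 141 without the filter on low values, 144 after quantile normalization, 139 with the library run as a covariate and 99 of 110 in the second run alone, and 0 called values changed sign. Klf15 was called between genotypes in every alternative that gave a value; without single libraries its differences ran from -2.71 to -2.43 fed, -1.54 to -1.23 fasted, -2.30 to -2.02 in cold and -2.20 to -1.97 in cold plus fasting.

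Counts of called factors moved by more than 1.5 times as follows; the cause was not tested, and shares in brackets are of all genes. Without the filter, 0 were called in BKO cold against fed (7.41%), 0 in BKO cold plus fasting against fed (8.47%), 3 in BKO cold plus fasting against fasted (23.1%), and 0 in the difference of fasted responses (0.425%). After quantile normalization, 2 were called in FF cold plus fasting against fed (22.2%), 0 in BKO cold against fed (16.9%) and 1 in BKO cold plus fasting against fed (17.8%). With the run as a covariate, 1 was called between fasted genotypes (1.16%, against 8.68% without the covariate), 0 in FF cold plus fasting against fed (6.44%, against 20.5%), 1 in BKO cold plus fasting against fed (18.7%) and 0 in the difference of fasted responses (0.559%). In the second run alone, with fewer FF libraries, 0 were called in FF cold against fed (0.921%), 2 in FF cold plus fasting against fed (2.32%), 2 in BKO cold against fed (15.2%) and 1 in BKO cold plus fasting against fed (16.6%). Comparisons with fasted FF mice had no value there. Smaller changes of a count came from Klf7 between fasted genotypes, lost with a pseudocount of 0.1 (adjusted p = 0.0554) or no filter (0.0778); Klf6 in FF fasting, lost without the filter (0.0726) or with the covariate (0.0504); Klf9 in FF cold, lost without the filter (0.0936); and Klf7 in FF cold, gained after quantile normalization (0.0453). In cold plus fasting against fasting, Klf4 was gained in FF mice with the covariate (0.0129), and Klf2 in BKO mice after quantile normalization (0.0424), with the covariate (0.0427) and in the second run (0.0155), and Klf3 after quantile normalization (0.0381).

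With each library left out, 2 to 5 factors were called between fasted genotypes and 1 in each other genotype comparison. In FF mice 1 to 4 were called in fasted and 1 to 5 in cold against fed, 0 to 2 in cold plus fasting against fed and 4 to 6 against fasted. In BKO mice the ranges were 2 to 3, 0 to 2, 0 to 3 and 3 to 6. The difference of responses gave 0 to 1 for fasting and 0 for cold and for cold plus fasting. Of 30 calls, 15 held in all 26 of these fits. Without FF fed replicate 3, Klf4 (0.78, adjusted p = 0.0147) and Klf13 (-0.59, adjusted p = 0.0341) were also called in FF cold against fed. With depth unknown, a missed call says nothing about absence of a difference.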
